A study of Mus musculus with 12 samples.

Results

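The 10 genes described here are regulators of the transcription factor NF-kB and genes that it classically switches on, measured by RNA sequencing of mouse cells. They were listed by name and matched to the count table by Ensembl identifier, and all 10 were found among its 55487 genes. They are Nfkb1, Nfkb2 and Relb, which encode subunits of the factor, Nfkbia, Nfkbie and Bcl3 of the inhibitor of kappaB (IkB) family, Tnfaip3 and Birc3, which encode ubiquitin enzymes of its signalling, and the response genes Icam1 and Lcn2. The 12 libraries form 4 groups of 3: Hepa1 in ferroptotic medium, Hepa1 in control medium, MEFs in ferroptotic medium and MEFs in control medium.

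Hepa1 is an established mouse hepatoma line, labelled wild type. The mouse embryonic fibroblasts (MEFs) were primary cells labelled Bach1 knockout. Ferroptotic medium was the supernatant of immortalised MEFs in which Bach1 had been re-expressed, and control medium that of immortalised MEFs labelled control, with no Bach1 genotype given. The BACH1 protein is a heme-binding repressor of antioxidant and iron-handling genes, and ferroptosis is an iron-dependent cell death driven by lipid peroxidation. Both media held 10% serum and were conditioned for 48 h, and the recipients spent 4 days in them with daily replacement. Both also received 0.1 mM 2-mercaptoethanol and 0.4 mg/mL vitamin E, so all 4 groups were exposed to a reducing agent and a lipid antioxidant. The series title names senescence and FGF21 secreted in ferroptosis, and the medium comparison asks what secreted factors do to recipient cells. Hepa1 and the MEFs differ in cell type, line and Bach1 genotype at once, and these cannot be told apart. The labels give neither the number of embryos behind the MEFs nor whether replicates were separate cultures. The p-values therefore reflect the spread between these samples alone, which may be technical.

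In resting cells NF-kB dimers are held inactive by IkB proteins, and signals from tumour necrosis factor, interleukin-1 or Toll-like receptors lead to IkB loss and entry of RELA and NFKB1 dimers into the nucleus. A slower branch, triggered by receptors such as the lymphotoxin beta receptor, processes the NFKB2 precursor and activates RELB. Many of the genes that shut the pathway off are among its own targets, so their transcripts are often read as signs of its activity. In liver the pathway is known for the acute-phase response and for protection from death receptor killing, and in fibroblasts for chemokines and adhesion molecules.

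Reads counted on genes ran from 18.58 M to 23.4 M per library, and values below are counts scaled to a common library total (CPM) on 1 scale for all libraries. Bach1 was read at 93.3 to 102 CPM in Hepa1 in ferroptotic medium and 116 to 123 CPM in Hepa1 in control medium. In the MEFs labelled knockout it stood at 85.0 to 91.7 CPM in ferroptotic and 90.0 to 101 CPM in control medium. The deleted exons are not named in the labels, and whole-gene counts do not check the deletion. Of 12 hepatocyte markers, Alb, Afp and Trf were read in Hepa1, while Apoa1, Ttr and Serpina1a were at 0 in all its libraries and Hnf4a had 1 read in total. All 12 fibroblast markers were read in every MEF library. MEF RNA in Hepa1 libraries was gauged from 53 genes that reached 500 CPM in MEFs but stayed below 0.2 CPM in control-medium Hepa1. Their level in Hepa1 ferroptotic replicate 3 was 0.0796% of that in MEFs, against 0.00778 and 0.0104% in the other 2 ferroptotic replicates. At that share MEF RNA would add 0.111 CPM of Icam1 and 0.130 CPM of Nfkb1 to that library.

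Promoter sequence was looked at because several of these genes are known NF-kB targets and moved together in Hepa1. Promoter windows from RefSeq (GRCm38.p6), 250 bases before to 50 after each annotated start, were found for 8 of the 10 genes, with none matched for Nfkb1 and Relb. Windows of 5 of the 8 held the 10-base kappaB consensus on either strand, namely those of Nfkbia, Nfkb2, Tnfaip3, Bcl3 and Nfkbie. Over all promoters 2779 of 32851 windows (8.46%) held it, or 9.55% of genes. The stricter form GGGANTTTCC, each match of which is also a match of the consensus, was found for Nfkbia and Nfkb2. Over all promoters it was in 0.411% of windows, or 0.466% of genes. The Nfkb2 window shown does not hold it. A match says only that the letters are there, and the windows of Birc3, Icam1 and Lcn2 held none. The consensus searched was GGGRNNYYCC (R is A or G, Y is C or T, N is any base). Sites that depart from these letters were not counted, so a window without a match may still hold such a site. The sequences shown are those of 4 genes with a match and of the 2 response genes without, cut 30 bases after the start, 5′ to 3′ on the strand of the gene, with matches in capitals.
Nfkbia, chr12:55492618-55492897, minus strand: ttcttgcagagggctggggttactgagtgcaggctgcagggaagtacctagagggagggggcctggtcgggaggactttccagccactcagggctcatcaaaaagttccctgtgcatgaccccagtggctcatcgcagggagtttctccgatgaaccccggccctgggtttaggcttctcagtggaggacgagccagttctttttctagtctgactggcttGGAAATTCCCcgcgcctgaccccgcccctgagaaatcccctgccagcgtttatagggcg
Nfkb2, chr19:46304487-46304766, plus strand: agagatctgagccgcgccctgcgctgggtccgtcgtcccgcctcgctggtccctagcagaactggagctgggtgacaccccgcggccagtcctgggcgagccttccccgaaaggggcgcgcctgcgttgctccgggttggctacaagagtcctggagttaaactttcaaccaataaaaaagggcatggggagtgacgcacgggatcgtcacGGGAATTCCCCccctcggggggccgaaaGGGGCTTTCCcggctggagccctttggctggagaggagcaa
Tnfaip3, chr10:19015381-19015660, minus strand: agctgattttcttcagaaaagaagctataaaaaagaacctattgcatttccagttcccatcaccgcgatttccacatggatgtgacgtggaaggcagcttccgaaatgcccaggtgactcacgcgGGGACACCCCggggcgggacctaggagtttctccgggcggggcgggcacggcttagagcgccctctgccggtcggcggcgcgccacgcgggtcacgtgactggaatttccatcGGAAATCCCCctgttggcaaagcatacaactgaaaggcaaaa
Bcl3, chr7:19822726-19823005, minus strand: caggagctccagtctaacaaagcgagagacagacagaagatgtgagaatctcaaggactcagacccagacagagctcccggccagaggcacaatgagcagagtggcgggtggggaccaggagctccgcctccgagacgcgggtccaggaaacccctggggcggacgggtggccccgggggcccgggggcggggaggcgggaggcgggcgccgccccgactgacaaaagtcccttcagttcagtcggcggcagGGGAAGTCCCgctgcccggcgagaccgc
Icam1, chr9:21015690-21015969, plus strand: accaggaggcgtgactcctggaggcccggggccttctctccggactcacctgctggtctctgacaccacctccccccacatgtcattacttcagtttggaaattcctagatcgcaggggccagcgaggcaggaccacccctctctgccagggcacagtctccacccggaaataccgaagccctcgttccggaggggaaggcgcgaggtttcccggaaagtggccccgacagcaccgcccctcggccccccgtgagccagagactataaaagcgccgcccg
Lcn2, chr2:32387710-32387989, minus strand: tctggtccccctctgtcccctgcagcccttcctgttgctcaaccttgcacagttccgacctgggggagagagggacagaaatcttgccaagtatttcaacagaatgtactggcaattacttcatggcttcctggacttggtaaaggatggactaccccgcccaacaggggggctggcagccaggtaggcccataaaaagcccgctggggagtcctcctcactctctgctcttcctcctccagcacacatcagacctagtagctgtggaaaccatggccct
In Nfkbia the match, GGGAATTTCC on the other strand, begins 29 bases before the start. In Nfkb2, GGGAATTCCC begins 39 bases before the start and reads the same on both strands. It overlaps GGGGAATTCC on the other strand, and GGGGCTTTCC follows 11 bases before the start. A second start of Nfkb2 has GGGACTTTCC. Tnfaip3 has GGGACACCCC, which matches on both strands, 125 bases before the start and GGGGATTTCC on the other strand 12 bases before it. The Bcl3 match, GGGAAGTCCC, matches on both strands and begins 2 bases after the start. Nfkbie, not shown, has GGGGGATTCC 106 bases before its start.

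In Hepa1 all 10 genes were lower in ferroptotic medium, from 4.00-fold for Tnfaip3 to a log2 change of -0.25 for Nfkb1. The median log2 change of the 10 was -0.87, against 0.00 over all 13169 genes tested, and 4 genes had changes at or under -1. Of all genes tested in Hepa1, 28.8% were called lower and 58.1% in either direction (edgeR's quasi-likelihood test, Benjamini-Hochberg adjusted p under 0.05). In all 10 genes the ferroptotic and control libraries did not overlap, as in 62.2% of all genes tested. Since the samples are bulk cultures, fewer cells expressing a gene and less RNA of it per cell cannot be told apart.

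Among the subunits, Relb changed most in Hepa1. Relb (ENSMUSG00000002983, chromosome 7, 19606217 to 19629438, minus strand, GRCm38), the partner of NFKB2 in the slower branch, had 26.8, 26.1 and 29.0 CPM in ferroptotic and 61.9, 57.3 and 61.9 CPM in control medium. The 3 ferroptotic libraries lay close together, far below every control library. Relb fell by 1.14 on the log2 scale (SE 0.0515, edgeR adjusted p = 5.39e-17) and ranked 202 from the lowest of all genes tested. Nfkb2 (ENSMUSG00000025225, chromosome 19, 46304320 to 46312385, plus strand), which encodes the precursor p100, had 146, 133 and 147 CPM in ferroptotic and 249, 245 and 261 CPM in control medium. No ferroptotic library came near the control range, and the log2 change was -0.83 (SE 0.0378, edgeR adjusted p = 7.60e-17). Nfkb2 shares exon bases with genes on the other strand, 531 with AC114539.1 and 299 with Psd. Reads on those shared bases cannot be told apart without strand. Reads assigned to AC114539.1 numbered 275 in ferroptotic and 306 in control medium, and those assigned to Psd 1197 in ferroptotic and 1347 in control medium. Nfkb2 was assigned 10255 in ferroptotic and 17693 in control medium. Nfkb1 (ENSMUSG00000028163, chromosome 3, 135584655 to 135691547, minus strand), which encodes p105 and its product p50, had 145, 143 and 151 CPM in ferroptotic and 172, 179 and 173 CPM in control medium. The groups did not overlap, and its change was the smallest of the 10, with a log2 of -0.25 (SE 0.0345, edgeR adjusted p = 4.75e-07).

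The IkB genes fell to different degrees. Bcl3 (ENSMUSG00000053175, chromosome 7, 19808462 to 19822770, minus strand) encodes a nuclear IkB protein that binds p50 and p52 dimers on DNA. It had 17.3, 16.7 and 14.7 CPM in ferroptotic and 42.6, 40.3 and 45.4 CPM in control medium. No ferroptotic library reached the control range, and Bcl3 fell by 1.40 on the log2 scale (SE 0.0652, edgeR adjusted p = 1.11e-16). Nfkbie (ENSMUSG00000023947, chromosome 17, 45555703 to 45563169, plus strand), the gene of IkB epsilon, had 16.1, 16.9 and 16.4 CPM in ferroptotic and 24.3, 22.5 and 25.1 CPM in control medium. The ferroptotic libraries were close to each other and below all controls, with a log2 change of -0.54 (SE 0.0646, edgeR adjusted p = 3.81e-08). Nfkbia (ENSMUSG00000021025, chromosome 12, 55489410 to 55492647, minus strand) encodes IkB alpha, the rapid feedback inhibitor. Its values were 35.2, 36.6 and 38.9 CPM in ferroptotic and 47.0, 48.1 and 48.0 CPM in control medium. The controls hardly varied and lay above each ferroptotic library, and the log2 change was -0.37 (SE 0.0485, edgeR adjusted p = 2.01e-07).

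Of the ubiquitin enzymes, Tnfaip3 showed the largest change of the 10 genes in Hepa1. Tnfaip3 (ENSMUSG00000019850, chromosome 10, 19000910 to 19015657, minus strand) encodes A20, which edits ubiquitin chains on signalling proteins and so limits the pathway. It had 14.8, 14.5 and 14.2 CPM in ferroptotic and 54.3, 60.1 and 59.5 CPM in control medium. The ferroptotic libraries formed a tight group far below the controls. Its log2 change of -2.00 (SE 0.0580, edgeR adjusted p = 2.59e-21) ranked 46 from the lowest of 13169 genes. Birc3 (ENSMUSG00000032000, chromosome 9, 7848699 to 7873186, minus strand) encodes cIAP2, a ubiquitin ligase that keeps NIK, the kinase of the slower branch, low. Birc3 had 13.4, 13.2 and 11.3 CPM in ferroptotic and 23.2, 24.1 and 24.0 CPM in control medium. All ferroptotic libraries were well below the controls, with a log2 change of -0.91 (SE 0.0720, edgeR adjusted p = 1.19e-11).

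The 2 response genes moved unequally. Lcn2 (ENSMUSG00000026822, chromosome 2, 32384633 to 32388252, minus strand) encodes lipocalin 2, a secreted protein that binds iron-carrying siderophores and is an acute-phase product of liver. It had 84.2, 88.9 and 82.8 CPM in ferroptotic and 276, 268 and 263 CPM in control medium. The groups were far apart with little spread in either, and Lcn2 was 3.15-fold lower, a log2 change of -1.66 (SE 0.0386, edgeR adjusted p = 3.14e-23). Icam1 (ENSMUSG00000037405, chromosome 9, 21015985 to 21028817, plus strand), which encodes an adhesion molecule bound by leukocyte integrins, had 16.7, 15.2 and 17.2 CPM in ferroptotic and 20.0, 19.5 and 19.7 CPM in control medium. The ferroptotic libraries lay just below the controls, with a log2 change of -0.27 (SE 0.0658, edgeR adjusted p = 0.00094).

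Marker levels of other cells also differed between the Hepa1 media. Summed over 14 leukocyte markers, CPM ran from 16.5 to 19.3 in ferroptotic and from 36.1 to 41.5 in control medium, with 7 to 9 markers at 0 in a library. Ptprc, C1qa, Tyrobp and Ly6g were at 0 in every library, and the gap lay mostly in Cd68, with 2.93 CPM in ferroptotic and 20.8 CPM in control medium. Other members went the opposite way, with 118 reads of Adgre1 in ferroptotic and 2 in control medium, and 202 reads of Lyz2 in ferroptotic and 94 in control medium. The 12 hepatocyte markers summed to 1334 to 1451 CPM in ferroptotic and 404 to 424 CPM in control medium, with 5 or 6 at 0 in a library. The gap lay in Trf, with 1093 CPM in ferroptotic and 334 CPM in control medium, and Alb, with 253 and 28.2 CPM. Afp hardly moved, with 54.3 CPM in ferroptotic and 49.4 CPM in control medium. Fgb went the opposite way, with 4 reads in ferroptotic and 18 in control medium. The 12 fibroblast markers summed to 2214 to 2327 CPM in ferroptotic and 1526 to 1777 CPM in control medium, most of it Col1a1 and Dcn. The part of these shifts in the results above was not tested.

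**Figure D1:**
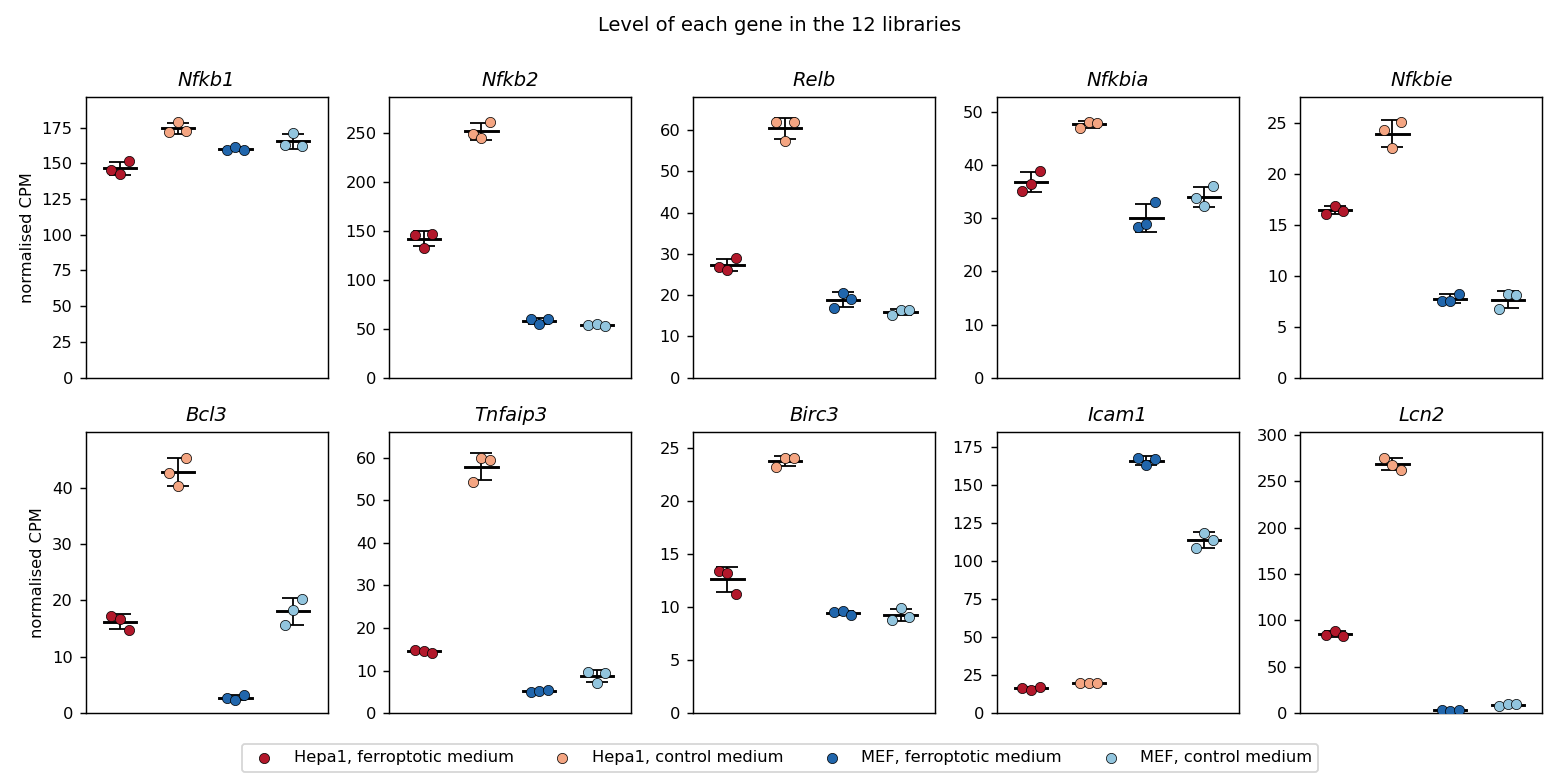
Normalised CPM of the 10 genes in each library (points), with group means (lines) and SDs (bars), for Hepa1 in ferroptotic and control medium and MEFs in ferroptotic and control medium. In Hepa1 each gene sits lower in ferroptotic medium, while Icam1 is higher in MEFs than in Hepa1 in both media.

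In MEFs the same genes split by direction. Bcl3, Lcn2, Tnfaip3 and Nfkbia were lower in ferroptotic medium, Icam1, Relb and Nfkb2 were higher, and Nfkb1, Birc3 and Nfkbie were not called. The median log2 change was -0.01, against 0.00 over all 14441 genes tested. The 7 called genes stand beside 55.0% of all genes tested, and the 4 lower and 3 higher beside 27.2% and 27.8%. In 7 genes the libraries did not overlap, against 60.1% of all genes. As a count, the list was therefore near the background in MEFs.

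Bcl3 showed the largest change of the 10 genes in MEFs, with 2.63, 2.27 and 3.17 CPM in ferroptotic and 15.6, 18.3 and 20.3 CPM in control medium. These levels rested on 48, 42 and 63 reads in ferroptotic and 269, 330 and 344 reads in control medium, and the groups were far apart. Bcl3 was 6.65-fold lower, a log2 change of -2.73 (SE 0.120, edgeR adjusted p = 3.77e-26) that ranked 34 from the lowest of 14441 genes. Lcn2 had 3.23, 2.65 and 3.17 CPM in ferroptotic and 7.83, 10.0 and 9.39 CPM in control medium. All ferroptotic libraries were low, and Lcn2 fell by 1.58 on the log2 scale (SE 0.131, edgeR adjusted p = 3.22e-15). Tnfaip3 had 4.88, 5.20 and 5.34 CPM in ferroptotic and 9.69, 7.09 and 9.39 CPM in control medium. Control replicate 2 was the lowest control and still above the ferroptotic libraries, and the log2 change was -0.75 (SE 0.120, edgeR adjusted p = 4.06e-07).

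Icam1 rose in MEFs, with 168, 163 and 167 CPM in ferroptotic and 108, 119 and 114 CPM in control medium. The ferroptotic libraries were alike and clear of the controls, and the log2 change was 0.55 (SE 0.0330, edgeR adjusted p = 1.41e-20). Icam1 shares 511 exon bases with Gm47079 on the other strand, which had 17 reads in ferroptotic and 2 in control medium. Icam1 itself had 9396 reads in ferroptotic and 5941 in control medium. Of 6 endothelial markers, a cell type known to express ICAM1, the summed CPM was 79.4 to 83.8 in ferroptotic and 67.0 to 74.7 in control medium, nearly all of it Erg and Tek. Cdh5 and Emcn were at 0 in all libraries, and the part of the shift in the Icam1 result was not tested. Fibroblast markers summed to 54055 to 55846 CPM in ferroptotic and 61849 to 65727 CPM in control medium, most of it Col1a1, Col1a2 and Col3a1. Col1a1 had 22045 CPM in ferroptotic and 27586 CPM in control medium. Postn went the opposite way, with 3932 CPM in ferroptotic and 1320 CPM in control medium. So did Dcn, with 15.6 CPM in ferroptotic and 4.55 CPM in control medium, and Lum. Pdgfrb hardly moved, with 742 CPM in ferroptotic and 737 CPM in control medium.

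The other called changes in MEFs were small, and their calls were lost when single libraries were left out. Relb had 16.9, 20.5 and 19.1 CPM in ferroptotic and 15.1, 16.3 and 16.4 CPM in control medium. Replicate 1 of the ferroptotic group was only just above the controls, and the log2 change was 0.25 (SE 0.0759, edgeR adjusted p = 0.00509). Without ferroptotic replicate 2 the adjusted p of Relb was 0.0640. Nfkb2 had 60.1, 54.4 and 59.6 CPM in ferroptotic and 53.8, 54.4 and 53.1 CPM in control medium. Ferroptotic replicate 2 and control replicate 2 were nearly equal, and the log2 change was 0.12 (SE 0.0449, edgeR adjusted p = 0.0261). Nfkb2 lost its call without control replicate 1 or 3 (adjusted p = 0.0533 and 0.0810) or ferroptotic replicate 1 or 3 (adjusted p = 0.144 and 0.112). Its call was also lost with the DESeq2 Wald test (adjusted p = 0.106). Nfkbia had 28.3, 28.9 and 33.2 CPM in ferroptotic and 33.8, 32.3 and 36.1 CPM in control medium. Ferroptotic replicate 3 lay inside the control range, and the log2 change was -0.17 (SE 0.0594, edgeR adjusted p = 0.0135). Nfkbia lost its call without control replicate 3 (adjusted p = 0.0890) or ferroptotic replicate 1 or 2 (adjusted p = 0.113 and 0.0732). It was also lost with no scaling beyond totals (adjusted p = 0.153) and with the DESeq2 Wald test (adjusted p = 0.0598).

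For the 3 genes without a call, the intervals bound the change. Nfkb1 had 159, 161 and 159 CPM in ferroptotic and 163, 172 and 162 CPM in control medium, with a log2 change of -0.046 and a 95% interval of -0.11 to 0.01 (edgeR adjusted p = 0.206). The ferroptotic libraries all lay just below the controls. Birc3 had 9.53, 9.58 and 9.26 CPM in ferroptotic and 8.82, 9.92 and 9.03 CPM in control medium, with an interval of -0.16 to 0.22 (edgeR adjusted p = 0.796). Nfkbie had 7.50, 7.53 and 8.25 CPM in ferroptotic and 6.73, 8.20 and 8.09 CPM in control medium, with an interval of -0.19 to 0.23 (edgeR adjusted p = 0.884). In both genes the libraries of the media were interleaved. Without control replicate 1 the log2 changes of Birc3 and Nfkbie were -0.00299 and -0.066, against 0.033 and 0.022 with all libraries, and that of Nfkbie without ferroptotic replicate 3 was -0.026. The intervals of all 3 lie above the Hepa1 log2 changes of the same genes.

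**Figure D2:**
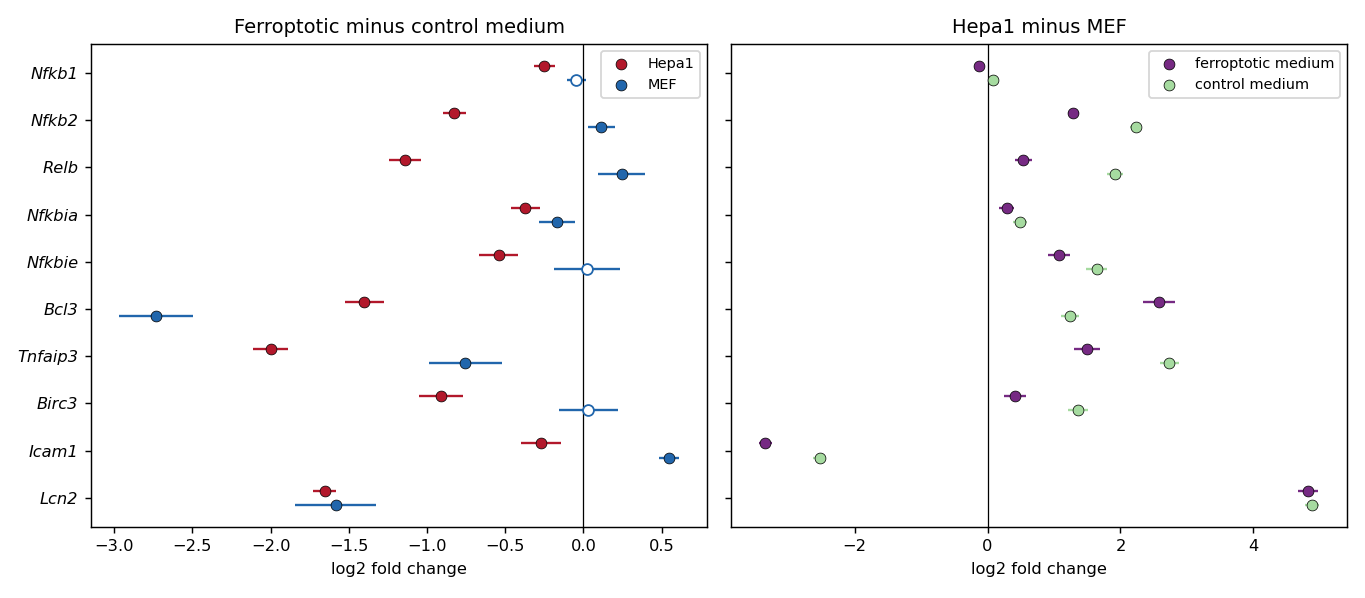
Log2 change of each gene in ferroptotic relative to control medium in Hepa1 and in MEFs, with 95% intervals (bars), filled where called at adjusted p under 0.05 and open where not. The Hepa1 points all lie below 0, while in MEFs Bcl3 reaches -2.73 and Icam1 0.55.

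The responses of the 2 cells differed for 9 of the 10 genes when the difference itself was tested over all 12 libraries, against 44.2% of all 15627 genes tested. In 8 genes the Hepa1 change was the lower one, beside 20.9% of all genes, and in Bcl3 the MEF change was, beside 23.3%. The widest gaps, Hepa1 minus MEF response, were those of Relb (log2 -1.38, SE 0.0931, edgeR adjusted p = 7.93e-17) and Bcl3 (log2 1.34, SE 0.151, edgeR adjusted p = 4.33e-10). Tnfaip3 differed by -1.24 (SE 0.136, edgeR adjusted p = 1.89e-10), and Birc3 (SE 0.118, edgeR adjusted p = 5.54e-09) and Nfkb2 (SE 0.0623, edgeR adjusted p = 5.41e-17) both by -0.94. The gap was -0.82 for Icam1 (SE 0.0731, edgeR adjusted p = 6.65e-13), -0.56 for Nfkbie (SE 0.123, edgeR adjusted p = 0.000185) and -0.20 for Nfkb1 (SE 0.0501, edgeR adjusted p = 0.000869). Nfkbia also differed by -0.20 (SE 0.0801, edgeR adjusted p = 0.0410), close to the threshold. Lcn2 was the exception, with a difference of -0.069 (0.024 without MEF control replicate 1), a 95% interval of -0.34 to 0.21 and an edgeR adjusted p of 0.754. A p above the threshold does not show that Lcn2 responded alike, but differences in its log2 change beyond that interval were not seen.

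The Nfkbia difference was fragile. It missed the threshold when Hepa1 control replicate 2 or 3 was left out (adjusted p = 0.0516 and 0.0576), and when Hepa1 ferroptotic replicate 1 or 2 was (adjusted p = 0.122 and 0.0712). It also missed it without MEF control replicate 1 or 2 (adjusted p = 0.0627 and 0.120). Without MEF ferroptotic replicate 3 its log2 difference was -0.13 (adjusted p = 0.221).

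Set side by side, 4 of the 10 genes were called lower in both cells (Bcl3, Lcn2, Nfkbia and Tnfaip3), as were 10.4% of the 12042 genes tested in both. Another 3 were lower in Hepa1 and higher in MEFs (Icam1, Nfkb2 and Relb), against 7.66% of genes, and 3 were lower in Hepa1 and not called in MEFs (Birc3, Nfkb1 and Nfkbie), against 11.6%. The MEF calls of Nfkbia, Nfkb2 and Relb in this count are those that were lost when single libraries were left out, as given above.

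**Figure D3:**
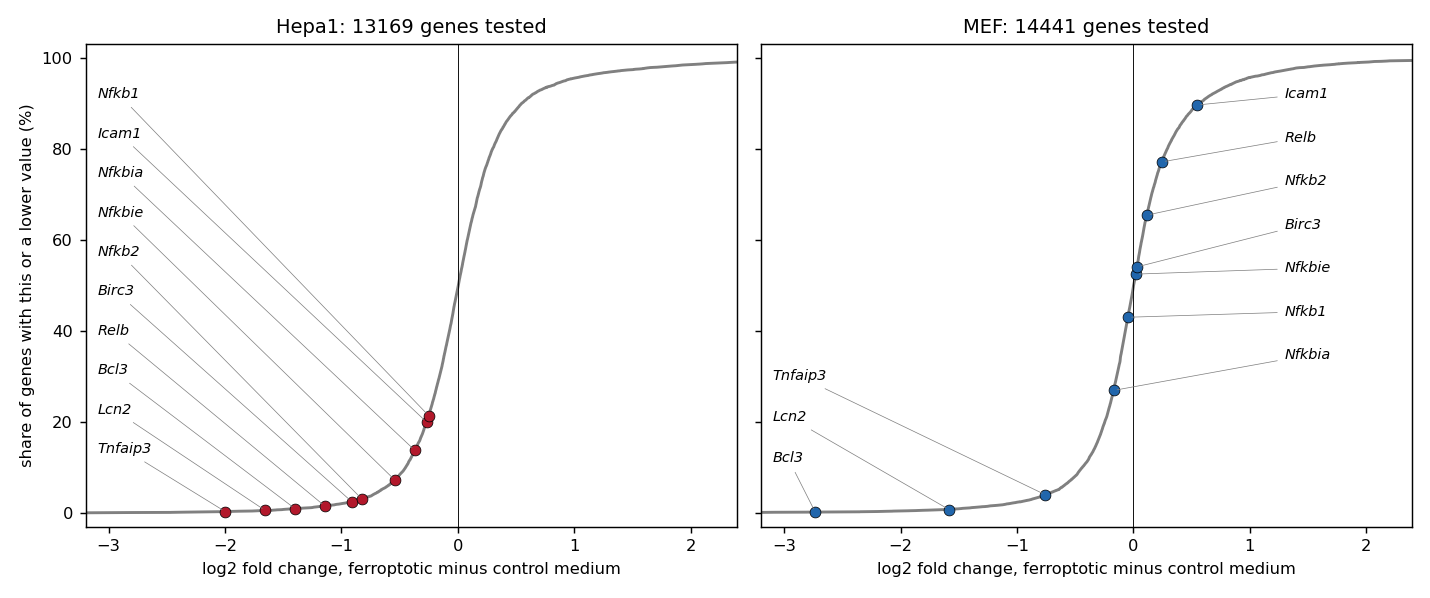
Position of the 10 genes along the cumulative share of all genes tested, ordered by log2 change in ferroptotic relative to control medium, for Hepa1 and MEFs (grey curves, all tested genes). In Hepa1 the 10 lie between the lowest 0.349% (Tnfaip3) and 21.4% (Nfkb1), and in MEFs they run from the lowest 0.235% (Bcl3) to Icam1, which lies 10.4% from the top.

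The levels of all 10 genes differed between the cells in both media. In ferroptotic medium 8 of the 10 genes were higher in Hepa1 than in MEFs and 2 were lower, beside 41.5% and 46.7% of all genes and 88.2% in either direction. In control medium 9 were higher and 1 was lower, beside 40.7% and 46.0% of all genes and 86.6% in either direction. Hepa1 in control medium held the highest level of 9 genes, and MEFs in ferroptotic medium that of Icam1.

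Lcn2 was the most unequal, with 85.3 ± 3.21 CPM in Hepa1 and 3.02 ± 0.318 CPM in MEFs in ferroptotic medium, a 28.2-fold difference. In control medium it had 269 ± 6.59 CPM in Hepa1 and 9.08 ± 1.13 CPM in MEFs, a 29.5-fold difference (SD, n = 3 each). The test of the difference between these ratios is the one given above for Lcn2, which was not called. Icam1 went the other way, with 16.3 ± 1.04 CPM in Hepa1 and 166 ± 2.74 CPM in MEFs in ferroptotic medium, and 19.7 ± 0.240 CPM in Hepa1 and 114 ± 5.18 CPM in MEFs in control medium (SD, n = 3 each). Its log2 difference, Hepa1 minus MEFs, was -3.34 in ferroptotic and -2.53 in control medium.

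The remaining genes were higher in Hepa1 by log2 differences of 0.29 (Nfkbia) to 2.58 (Bcl3) in ferroptotic medium and of 0.076 (Nfkb1) to 2.74 (Tnfaip3) in control medium, except Nfkb1 in ferroptotic medium. Relb differed by 0.54 in ferroptotic and 1.92 in control medium, and Nfkb2 by 1.29 in ferroptotic and 2.23 in control medium. Their gap between the cells was thus smaller in ferroptotic medium, and that of Bcl3 was wider, at 2.58 in ferroptotic and 1.24 in control medium. Birc3 differed by 0.41 in ferroptotic and 1.36 in control medium, and Nfkbie by 1.08 in ferroptotic and 1.64 in control medium. Tnfaip3 differed by 1.49 in ferroptotic and 2.74 in control medium, and Nfkbia by 0.29 in ferroptotic and 0.49 in control medium. All these log2 differences were called.

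Nfkb1 was the most even gene, with 147 ± 4.39 CPM in Hepa1 and 159.9 ± 1.19 CPM in MEFs in ferroptotic medium, and 174 ± 3.83 CPM in Hepa1 and 165 ± 5.28 CPM in MEFs in control medium (SD, n = 3 each). Its log2 difference, Hepa1 minus MEFs, was -0.13 in ferroptotic (edgeR adjusted p = 0.00124) and 0.076 in control medium (edgeR adjusted p = 0.0436). With no scaling beyond totals, which moves the median of all genes by 0.54 in ferroptotic and 0.56 in control medium, the ferroptotic difference was 0.41. Relative to that shift Nfkb1 still lay below the median gene. Its control-medium call was lost with a replicate block (adjusted p = 0.192), with DESeq2 size factors (adjusted p = 0.175), and when Hepa1 control replicate 2 (adjusted p = 0.104) or MEF control replicate 1 or 3 (adjusted p = 0.0946 and 0.104) was left out.

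Neighbours in the order of levels overlapped in 4 genes. For Nfkbia, Hepa1 in ferroptotic medium and MEFs in control medium overlapped, as did MEFs in the 2 media. For Bcl3, Hepa1 in ferroptotic medium and MEFs in control medium overlapped at 16.2 ± 1.33 and 18.1 ± 2.36 CPM (SD, n = 3 each). For Birc3 and Nfkbie the MEF groups overlapped. No other neighbouring groups overlapped in these 10 genes.

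Levels per kilobase of exon allow only a rough comparison of genes, since the length joins all annotated exons of a gene. On this scale Lcn2 led in Hepa1, with 32.5 CPM per kb in ferroptotic and 102 in control medium. Nfkb2 came next in Hepa1, with 31.0 CPM per kb in ferroptotic and 54.9 in control medium, and Tnfaip3 (2.00) was lowest in ferroptotic and Icam1 (4.52) in control medium. In MEFs Icam1 led, with 38.1 CPM per kb in ferroptotic and 26.1 in control medium. Nfkbia followed in MEFs with 18.7 CPM per kb in ferroptotic and 21.1 in control medium, and Tnfaip3 was lowest, with 0.711 in ferroptotic and 1.21 in control medium. Thus Lcn2 and Icam1, which led in 1 cell each, stood low in the other: Icam1 had 3.75 CPM per kb in Hepa1 and Lcn2 1.15 in MEFs, both in ferroptotic medium.

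A wider list of 111 NF-kB pathway genes outside the 10 was looked at by role. In Hepa1 78 were tested, and 46 were lower and 16 higher in ferroptotic medium, with a median log2 change of -0.24. In MEFs 83 were tested, and 30 were lower and 24 higher, with a median of -0.031. The medians over all genes tested were 0.00 in both cells. Of all genes tested, 28.8% were called lower and 29.3% higher in Hepa1, and 27.2% lower and 27.8% higher in MEFs. In the 74 genes tested in both, 17 (23.0%) were lower in both and 11 (14.9%) were lower in Hepa1 and higher in MEFs.

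The remaining subunits, Rela and Rel, were lower in both cells. Rela, the main activating subunit, had 168 ± 3.71 CPM in ferroptotic and 250.5 ± 11.3 CPM in control medium in Hepa1 (SD, n = 3 each). In MEFs it had 101 ± 2.80 CPM in ferroptotic and 117 ± 0.645 CPM in control medium. Its log2 change was -0.57 in Hepa1 and -0.20 in MEFs. Of 3 further IkB genes tested, 2 were lower in Hepa1 and 1 in MEFs. Nfkbiz, a nuclear IkB gene that boosts a subset of targets, fell by 1.41 in Hepa1 and by 0.92 in MEFs on the log2 scale, and Nfkbib fell by 0.97 in Hepa1 and had a log2 change of -0.11 in MEFs (edgeR adjusted p = 0.245).

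Of the 12 kinases, 7 were lower and 2 higher in Hepa1 (median log2 change -0.13), and 1 was lower and 6 were higher in MEFs (median 0.079). The called share was 75.0% in Hepa1, against 58.1% of all genes tested. In MEFs it was 58.3%, near the 55.0% of all genes. The difference between the responses was called for 6 of the 12, beside 44.2% of all genes tested, among them Map3k14 (log2 -1.32) and Ikbke (log2 -1.06), Hepa1 minus MEF. Map3k14 encodes NIK, the kinase of the slower branch. Its level was 23.1 ± 1.25 CPM in ferroptotic and 33.1 ± 1.50 CPM in control medium in Hepa1 (SD, n = 3 each). In MEFs it was 9.34 ± 0.393 CPM in ferroptotic and 5.36 ± 0.205 CPM in control medium. It fell by 0.52 in Hepa1 and rose by 0.80 in MEFs on the log2 scale. Ikbke, an IkB kinase-like gene, fell by 0.77 in Hepa1 and rose by 0.29 in MEFs, and Ikbkg, the gene of the scaffold NEMO, fell by 0.65 in Hepa1 and had a log2 change of -0.032 in MEFs (edgeR adjusted p = 0.432).

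Of 26 adaptors and ubiquitin regulators tested, 12 were lower and 6 higher in Hepa1, and 7 lower and 6 higher in MEFs. In Hepa1 69.2% were called, against 58.1% of all genes tested. The other 13 of the 26 were not called in MEFs, so the called share there was under the 55.0% of all genes. Traf3, which with cIAP proteins holds NIK low, fell by 0.58 in Hepa1 and rose by 0.40 in MEFs on the log2 scale. Tnip1, a partner of A20, fell by 0.64 in Hepa1 and rose by 0.20 in MEFs. Cyld, a deubiquitinase that limits the pathway, fell by 0.90 in Hepa1 and had a log2 change of 0.088 in MEFs (edgeR adjusted p = 0.0677).

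Receptor genes were mostly lower in Hepa1, with 7 lower and 3 higher of 11 tested, and 5 lower and 2 higher of 13 tested in MEFs. The called share was 90.9% in Hepa1, against 58.1% of all genes tested. In MEFs it was 53.8%, near the 55.0% of all genes. Tnfrsf1b, a tumour necrosis factor receptor, fell by 0.57 in Hepa1 and by 0.91 in MEFs on the log2 scale. Tnfrsf12a, the receptor of TWEAK, fell by 1.00 in Hepa1 and by 0.14 in MEFs. Tlr7, an RNA sensor, rose by a log2 of 1.76 in MEFs, with 819 reads in ferroptotic and 223 reads in control medium, and had too few reads to test in Hepa1.

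Of 10 ligand genes, 1 was tested in Hepa1 and 2 in MEFs, and Tnfsf12, the gene of TWEAK, had the most reads, with 1158 in ferroptotic and 1095 in control medium in MEFs. Tnfsf11, which encodes RANKL, was the ligand called, with 75 reads in ferroptotic and 193 reads in control medium in MEFs, a log2 change of -1.47. Of the 23 other response genes tested in Hepa1, 16 were lower and 5 higher (median -0.65), and of the 25 tested in MEFs, 13 were lower and 10 higher (median -0.17). Junb, an AP-1 subunit gene, fell in both cells, by 1.51 in Hepa1 and by 1.39 in MEFs on the log2 scale. Vcam1, an adhesion gene like Icam1, fell by 0.42 in Hepa1 and rose by 0.90 in MEFs, where it had 289 ± 10.0 CPM in ferroptotic and 156 ± 10.1 CPM in control medium (SD, n = 3 each). Selp, the P-selectin gene, fell by 1.54 on the log2 scale in MEFs and was not tested in Hepa1. Ccl2, a chemokine gene chosen after its values were seen, had 732 reads in ferroptotic and 5037 reads in control medium in Hepa1, a log2 change of -2.82. In MEFs Ccl2 had 69 reads in ferroptotic and 15 reads in control medium, a log2 change of 2.06. The 5 response genes that rose in Hepa1 were Psmb9 (log2 1.88), Tap1 (0.60), Cx3cl1 (0.50), C3 (0.50) and Irf1 (0.24). In MEFs Cx3cl1 was lower and the others of these were higher.

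**Figure D4:**
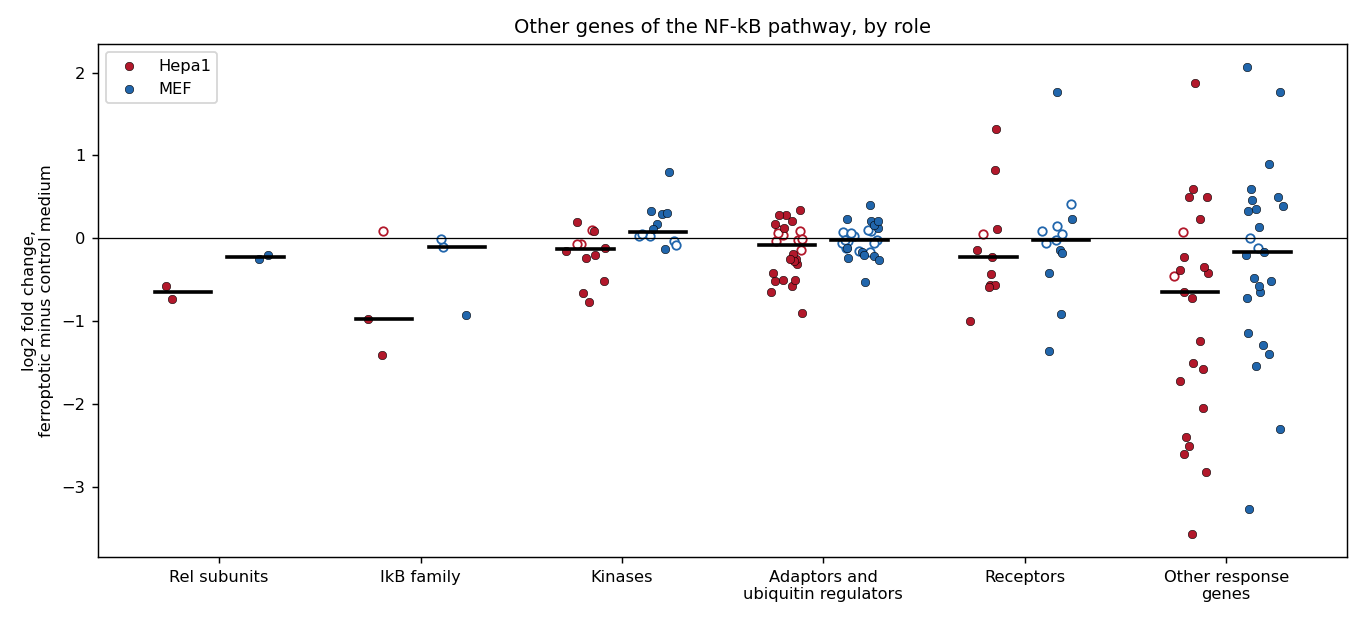
Log2 change in ferroptotic relative to control medium of the wider pathway genes by role, in Hepa1 and in MEFs, with filled points for called genes, open points for the others and black bars for list medians. The other response genes have a median of -0.65 in Hepa1 and -0.17 in MEFs, and the kinases a median of -0.13 in Hepa1 and 0.079 in MEFs.

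The 10 genes did not share a single profile. As the root mean square difference between log2 profiles over 12 libraries, each centred on its mean, the closest pairs were Nfkbia with Nfkb1 (0.227), Relb with Birc3 (0.237) and Relb with Nfkbie (0.245). Among 12864 protein-coding genes outside the list, the profile nearest to Tnfaip3 was that of Rnd1 (0.246), then Maff (0.283) and Fam71f2 (0.309). For Birc3 they were Ugdh (0.0954), Ikbkg (0.119) and Ikbke (0.120), and for Bcl3 Junb (0.434), Irf2bpl (0.446) and Trib1 (0.457). Lcn2 was nearest to Ampd3 (0.352), Cxcl3 (0.420) and Tcim (0.517). Bcl3 and Lcn2 thus lay farther from their nearest genes than Tnfaip3 or Birc3 did. The gene nearest to Nfkbia was Chic2 (0.0557), to Nfkb1 Ubxn2a (0.0418) and to Nfkb2 Gpatch4 (0.119). For Relb it was Dst (0.120), for Nfkbie Mafg (0.0615) and for Icam1 Lrrtm3 (0.108). Lrrtm3 had 0.0 CPM in ferroptotic and 0.028 CPM in control medium in Hepa1. In MEFs it had 4.24 CPM in ferroptotic and 2.68 CPM in control medium. Profiles were taken after adding 0.5 CPM, which sets the Hepa1 values of a gene so close to 0. Of the near genes named here, Ikbkg, Ikbke and Junb are on the wider pathway list, and the others are not. Each gene of the closest pairs named first lay nearer to a gene outside the 10 than to its partner. Profiles over these 12 libraries carry the gap between the cells as well as the medium response, so closeness here is a description.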

How the data were processed

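The deposited values are raw read counts per Ensembl gene. Per the submitters' processing notes the tools were STAR 2.7.10a, HTSeq 0.9.1, FastQC 0.11.9 and Trimmomatic 0.39, and the build was GRCm38 (mm10). Neither the strand setting nor the release of the annotation is stated in the sources used here. Per the labels' protocols, 100 ng of total RNA went into each library. The 5 HTSeq summary lines were set apart. They held 2.00 to 2.58% of reads on no gene and 3.66 to 4.03% ambiguous reads. GENCODE M21 named 55227 of the 55487 genes, and multi-mapped reads are not counted.

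Groups came from the sample titles. Counts were scaled with TMM factors over the 12 libraries to normalised CPM. Medium responses were tested on the 6 libraries of each cell in edgeR 4.0.16 (R 4.3.3), using its quasi-likelihood F-test on genes kept by filterByExpr. The difference of responses and the cell differences came from a fit over 12 libraries. P-values were Benjamini-Hochberg adjusted over all genes tested, with a call under 0.05. Standard errors were derived from the F statistic and are approximate, and intervals are 1.96 of them on either side. Levels per kilobase used union exon lengths. All 10 genes passed the count filter in each fit.

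The 10 genes, the wider lists and the cell markers were chosen with earlier results of these data known. Named are the 10 genes, up to 3 genes per wider list with the smallest adjusted p in either medium comparison, and the genes nearest in profile to 4 of the 10. Of the others only the single nearest gene is named. Ccl2, the response genes that rose in Hepa1, the single marker genes named and the nearest genes of those others were added after their values were seen. Replicate numbers were not treated as pairs, since deviations of libraries with the same number correlated at -0.0251 to -0.00126 in Hepa1 and 0.000481 to 0.0521 in MEFs. Alternatives were DESeq2 size factors, no scaling beyond totals, the DESeq2 1.42.0 Wald test, limma-voom (3.58.1), no count filter, a filter at 1 CPM in 3 libraries, a replicate block, and leaving out each library.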

Additional observations from a re-analysis of the deposited data

Results flagged for a closer look

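The log2 medium responses of 9 genes differed between Hepa1 and MEFs by the test of the difference itself (edgeR's quasi-likelihood test over 12 libraries, Hepa1 minus MEF response). The differences were -1.38 for Relb, -1.24 for Tnfaip3, -0.94 for Nfkb2, -0.94 for Birc3, -0.82 for Icam1, -0.56 for Nfkbie, -0.20 for Nfkb1 and -0.20 for Nfkbia, and 1.34 for Bcl3. Of all genes tested, 44.2% were called in this comparison.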

How the results depend on the processing

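In Hepa1 all 140 values of the 10 genes over 14 alternatives kept their direction and their call. In MEFs 123 of 140 did, 13 lost a call and 4 turned direction, all in genes that were not called. These were Nfkb1 with no scaling beyond totals (0.023), and Birc3 and Nfkbie when single libraries were left out, with log2 changes of -0.00299 to 0.083 for Birc3 and -0.066 to 0.070 for Nfkbie. In the difference of responses 179 of 190 kept both, 10 lost a call, all in Nfkbia, and Lcn2 ran from -0.16 to 0.024 when single libraries were left out. Between the cells, 129 of 130 values in ferroptotic medium kept both. The exception was Nfkb1 with no scaling (0.41), which left 1 gene called lower in Hepa1 where TMM scaling called 2. In control medium 123 of 130 did, and 7 lost a call, all in Nfkb1. The calls lost in MEFs were those of Nfkbia, Nfkb2 and Relb. Nfkb2 also lost its MEF call without a count filter (adjusted p = 0.0627) and with the contrast from the 12-library fit (adjusted p = 0.0602). The cause of these losses was not tested.

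Without scaling beyond totals the split of all genes called higher and lower was 4515 and 3169 in Hepa1, against 3865 and 3791 with TMM scaling, and 5211 and 2957 in MEFs, against 4009 and 3934. In the difference of responses it was 3420 and 3503, against 3644 and 3267. For Hepa1 minus MEFs it was 9028 and 5109, against 6491 and 7294, in ferroptotic medium, and 9101 and 5004, against 6356 and 7181, in control medium. A replicate block changed the call of 1 gene, Nfkb1 in the control-medium cell difference (0.073, adjusted p = 0.192), and no other. Same-numbered libraries showed no pairing. In MEFs the 95% intervals of Birc3 (-0.16 to 0.22) and Nfkbie (-0.19 to 0.23) include 0, and neither gene was called. The lack of a call does not show that these genes were unchanged.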
